A study of Drosophila melanogaster with 8 samples.

Results

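Transcripts with cDNA clones from adult fly head libraries were followed here in whole flies. They were taken as the array targets whose identifier is the name of a cDNA clone of the GH, RH or HL library, that is, 1 of these prefixes and 5 digits. The array held 222 such clones, read by 302 probes, among 25768 targets in all: 115 GH clones, 90 RH clones and 17 HL clones. A reference table gave 47 of the 222 clones a gene symbol through the clone name, and 175 remained known by clone name only. Of the 47, 42 were protein-coding genes, 3 pseudogenes, 1 a long noncoding RNA and 1 a hairpin RNA. They lay on chromosome X (10 clones) and on arms 2L (5), 2R (7), 3L (9) and 3R (16).

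Whole adult Drosophila melanogaster of 2 genotypes were compared on 1-colour microarrays, w1118 as the control and w1118;darkcd4, which carries the darkcd4 allele and had been backcrossed for 6 generations to w1118. Both share the w1118 background, and the series title calls the mutant apoptosis-deficient; dark encodes the fly relative of Apaf-1, which assembles the complex that switches on caspases. Each genotype had 4 samples (control 1 to 4 and mutant 1 to 4), each of total RNA pooled from 5 flies at day 5 of adult life, with mating allowed. Sex and separate rearing of the samples are not in the labels, and the spread behind each p-value may therefore be technical.

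A cDNA clone is a DNA copy of an RNA molecule, and a library holds the copies made from 1 tissue. The GH, RH and HL libraries were made from adult heads, which contain the brain, the compound eyes, sense organs, muscle, cuticle and a fat body. A clone from such a library shows that its RNA was present in heads, not that it is restricted to them. In a whole-fly sample a clone can therefore be read from any tissue, and fewer cells of a type and less RNA per cell cannot be told apart. Marker and pathway lists could be read only for clones with a gene symbol, which 140 of the 184 tested clones lack. Of 16 lists, the list of synapse and neuron genes had 1 tested clone with a symbol (Shaker). No tested clone with a symbol belonged to the phototransduction, glia, neuropeptide or clock lists, so the head origin could not be checked by markers. No target could be matched to dark itself, so the genotype could not be checked by its level.

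A level is the log2 of a probe's background-subtracted signal over the 75th percentile of its array, and a difference is the mutant mean minus the control mean on that scale. The 75th percentile was between 456.5 and 553.1 signal units on the control arrays and between 253.9 and 515.7 on the mutant arrays, lowest on mutant 1. The arrays lay on 1 slide, with control 1 and 2 and mutant 1 and 2 in row 1 and the others in row 2; each genotype had its own columns, so genotype and column on the slide cannot be told apart. Control 1, mutant 1 and mutant 2 stood apart: the mean level of 12 small structured RNAs (spliceosomal, nucleolar and signal recognition particle RNAs among them) was 1.19, 1.92 and 1.44 there and between -0.68 and -0.23 on the other 5 arrays. The counts of calls, the called clones and the median difference are given with and without them. The number of arrays limits the precision: the 95% interval of a clone's difference reached a median of 0.53 to either side, with a range of 0.19 to 1.78.

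In w1118, 179 of the 222 clones (80.6%) were well above background on all 4 arrays, against 71.6% of all other targets. Of 139 clones of the adult testis library, 124 (89.2%) were so. By library the 179 head-library clones were 103 of 115 GH clones, 62 of 90 RH clones and 14 of 17 HL clones. For 184 clones a probe exceeded background clearly on 4 or more of the 8 arrays, and these clones entered the comparison. Their mean w1118 levels ran from -7.09 to 7.995 with a median of -1.86, and the quartiles were -4.01 and 0.65; the median of the 19026 other targets that entered was -1.09. A probe's signal depends on its sequence as well as on RNA amount, so these levels describe the range of signals and do not rank transcripts.

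Few head-library clones were called as different between the genotypes, and the share called was near that of the whole array. Across all 19210 targets, 420 differed between the genotypes (limma, Benjamini-Hochberg adjusted p under 0.05), which is 2.19%, with 1.28% higher and 0.906% lower in the mutant. Of the 184 clones 4 were called (2.17%), with RH25742 and GH26583 higher and GH15759 and RH04101 lower. At an unadjusted p under 0.05 there were 31 clones (16.8%), against 21.1% of all targets. All mutant values lay above, or all below, all control values for 14 clones (7.61%), 8 higher and 6 lower, against 11.8% of all targets. A difference of at least 2-fold was seen in 3 clones (1.63%), against 3.66% of all targets, and all 3 were RH clones. Neither the share called nor the share with separate groups was above that of the array as a whole.

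The largest called rise was that of RH25742, which carries no gene symbol here. Its level was 6.73, 6.41, 6.14 and 6.88 in control 1 to 4 and 8.14, 7.82, 7.30 and 7.75 in mutant 1 to 4. Every mutant array was above every control array, and the closest pair was mutant 3 and control 4. The clone was 2.32-fold higher in the mutant, a log2 difference of 1.21 ± 0.25 (SE, n = 4 per genotype; limma, adjusted p = 0.0425). A second probe of RH25742, fitted beside all 24647 probes that entered, rose by 1.42 ± 0.19 (limma, adjusted p = 0.00691), so both probes of this clone were called in the same direction.

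GH26583 is a clone of CG11841, a predicted secreted serine protease of the trypsin family. Its level was -1.44, -1.44, -1.84 and -1.78 in control 1 to 4 and -0.72, -0.89, -0.78 and -0.98 in mutant 1 to 4. The groups did not overlap, and the mutant arrays lay closer together than the controls. The difference of 0.78 ± 0.13 (SE, n = 4 per genotype; limma, adjusted p = 0.0214) is a 1.72-fold rise.

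RH04101, also without a gene symbol, showed the largest called fall. It stood at -2.16, -1.72, -1.13 and -1.43 in control 1 to 4 and at -2.69, -3.18, -3.02 and -2.80 in mutant 1 to 4. Control 1 came nearest to the mutant values without reaching them. The difference of -1.31 ± 0.22 (SE, n = 4 per genotype; limma, adjusted p = 0.0208) makes the clone 2.48-fold lower in the mutant. GH15759, the other called fall, was at 2.10, 1.98, 2.16 and 1.96 in control 1 to 4 and at 1.37, 1.32, 1.66 and 1.41 in mutant 1 to 4. Here the control arrays were tightly grouped, mutant 3 was the mutant array nearest to them, and the difference of -0.61 ± 0.11 (SE, n = 4 per genotype; limma, adjusted p = 0.0288) is a 1.53-fold fall. GH26583, RH04101 and GH15759 each had 1 probe that entered, so RNA level and a base difference at the probe's target site cannot be told apart.

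**Figure D1:**
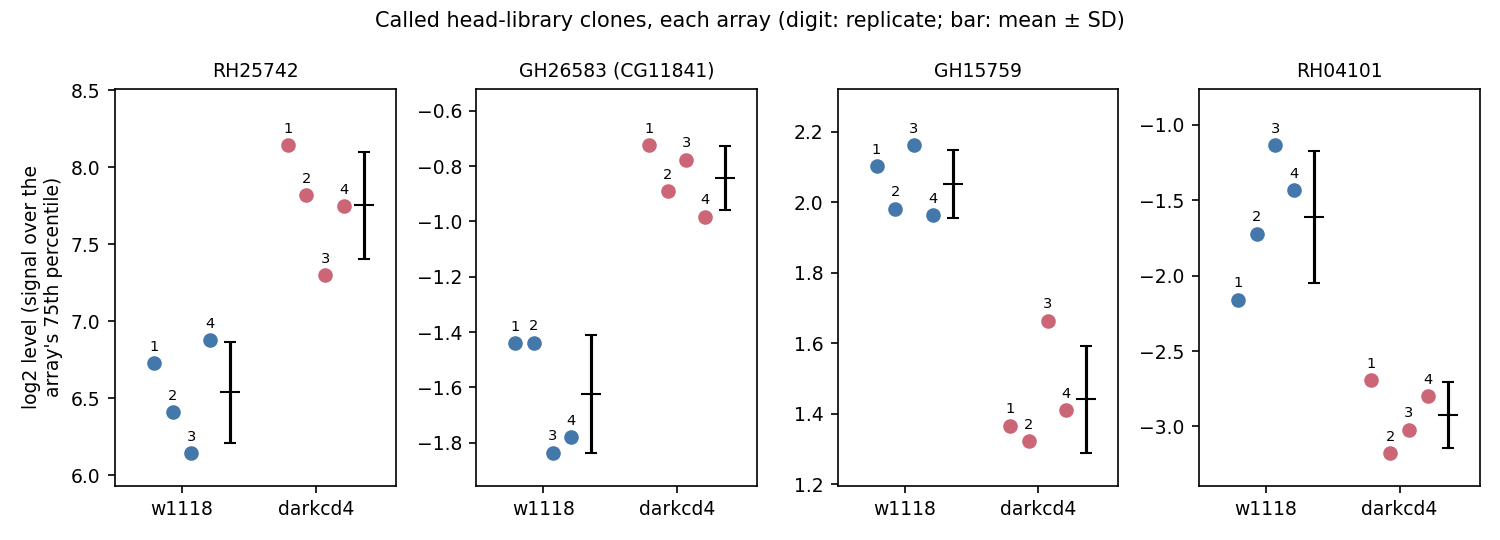
The vertical axes give the log2 level (signal over the array's 75th percentile, a separate scale for each clone) of the 4 called clones on the w1118 arrays (blue) and darkcd4 arrays (red); digits are replicate numbers and black bars the mean ± SD. In each panel the genotypes do not overlap, and the gap is narrowest between mutant 3 and the controls for RH25742 and GH15759 and between control 1 and the mutants for RH04101.

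These calls depended on the arrays and on the slide row, while no direction turned. Without control 1, 2, 3 or 4 the numbers of clones called were 2, 1, 0 and 1, and without mutant 1, 2, 3 or 4 they were 1, 0, 13 and 2 (limma; for the counts of 0, without control 3 and without mutant 2, 19 clones each had an unadjusted p under 0.05). Of all targets, 1.31%, 0.885%, 0.708% and 0.937% were called without control 1 to 4, and 1.02%, 0.796% and 1.47% without mutant 1, 2 and 4. The 13 clones without mutant 3 are 7.07% of those tested, against 13.2% of all targets in that fit. RH25742 and GH15759 kept their calls without mutant 3 alone, with limma adjusted p up to 0.161 and 0.120 when another array was left out; RH04101 lost its call without any of control 2, 3 and 4 and mutant 2 (limma, adjusted p up to 0.0736), and GH26583 without any of control 3 and 4 and mutant 1 and 2 (limma, adjusted p up to 0.0822). With the replicate number as a block 8 clones were called (4.35%, against 5.45% of all targets), and with slide row as the block 11 clones were called (5.98%, against 9.07% of all targets), the 4 clones among them in both fits. In row 1 alone 3 clones were called (1.63%, against 4.71% of all targets), none of them among the 4; in row 2 alone 4 were called (2.17%, against 1.05%), GH26583 and RH04101 included. Without control 1, mutant 1 and mutant 2 there were 3 (1.63%, against 2.13%), of which GH26583 and RH04101 were among the 4.

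Of the clones next in order of p, none carries a gene symbol. GH11417 had a difference of -0.97 ± 0.26 (SE, n = 4 per genotype; limma, adjusted p = 0.0936): it was at 6.22, 5.99, 6.32 and 6.05 in control 1 to 4 and at 4.62, 4.85, 5.82 and 5.39 in mutant 1 to 4. The groups did not overlap, and mutant 1 and 2 were the lowest arrays. GH13458 was at 2.49, 2.12, 1.97 and 1.99 in control 1 to 4 and 3.52, 3.17, 2.49 and 2.75 in mutant 1 to 4, with a difference of 0.84 ± 0.23 (limma, adjusted p = 0.0984); mutant 3 fell just below control 1. GH23733 was at 2.13, 2.59, 2.40 and 2.55 in control and 2.81, 2.76, 3.21 and 3.28 in mutant arrays, a difference of 0.60 ± 0.16 (limma, adjusted p = 0.102) with no overlap. Unlike GH13458, this clone was highest on mutant 3 and 4. GH27220 had a difference of 0.66, RH12280 of -0.57 and GH03315 of -0.52 (limma, adjusted p = 0.0995, 0.1175 and 0.1175), each with overlapping groups. With the row as a block all 6 passed (limma, adjusted p from 0.0131 for GH13458 to 0.0483 for GH03315), and without mutant 3 all but GH23733 did. Without control 1, mutant 1 and mutant 2, GH23733 was the 1 of the 6 that passed.

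Among clones that were not called, the largest differences belonged to RH68747, GH11417, RH56396 and GH18009. RH68747 differed by 1.32 ± 0.79 (limma, adjusted p = 0.357) and was at -3.43 in control 1, -1.80 in mutant 1 and -2.65 in mutant 2, but between -5.73 and -4.60 on the other arrays. The arrays with high small structured RNAs were thus the 3 highest, whatever their genotype. RH56396 was at 2.14, 2.46, 2.47 and 1.15 in control 1 to 4 and at 0.99, 1.23, 0.96 and 1.32 in mutant 1 to 4, a difference of -0.93 ± 0.27 (limma, adjusted p = 0.121). Control 4 alone lay within the mutant range, and without it the clone was called, at -1.23 (limma, adjusted p = 0.00898). In row 1 alone RH56396 was at -1.19 and in row 2 alone at -0.67 (limma, adjusted p = 0.0392 and 0.489). GH18009 differed by -0.93 ± 0.35 (limma, adjusted p = 0.186) at levels between -6.50 and -4.39, and its sign turned, to 0.20, with normexp background correction and the 75th percentile.

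The median over the tested clones was slightly below that of the other targets, and its place depended on which clones and settings were taken. The median difference was -0.07, with quartiles of -0.33 and 0.14 and 105 of 184 values below 0 (57.1%). The other targets had a median of -0.02 and 52.3% below 0. The 44 clones with a gene symbol lay on the other side, with a median of 0.05 and 40.9% below 0, and the 140 without one had a median of -0.10 and 62.1% below 0. Over clones and targets well above background on all 8 arrays the order turned, at -0.0060 for the clones and -0.01 for the other targets. By library the medians were -0.08 for 106 GH clones, -0.02 for 63 RH clones and -0.23 for 15 HL clones. Clones of the adult testis library (AT, 126 tested) had a median of -0.36 with 83.3% below 0, and clones of other libraries (579 tested) a median of -0.06. These medians are a description, and no test of the set was made.

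**Figure D2:**
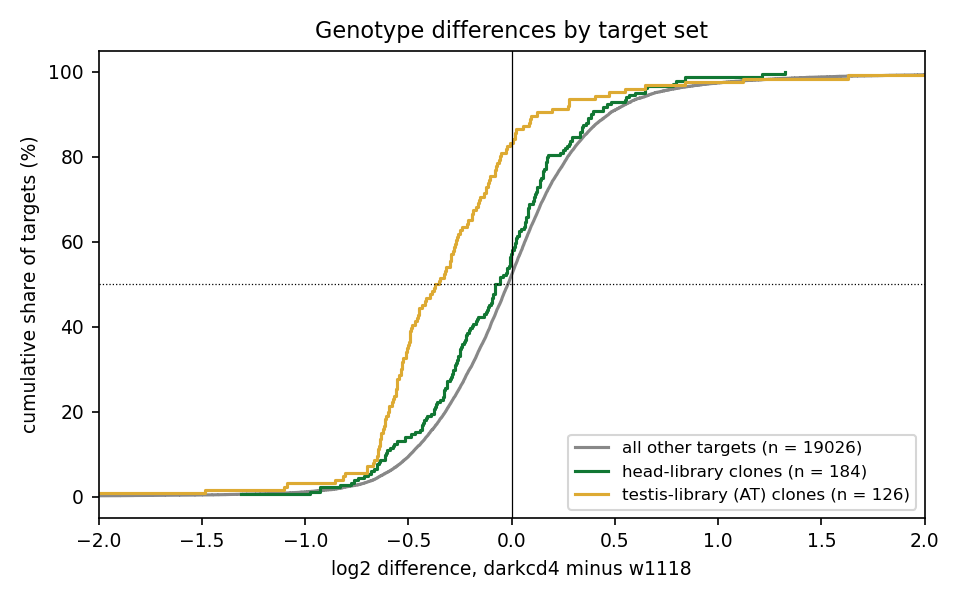
The horizontal axis is the log2 difference, darkcd4 minus w1118 (drawn from -2 to 2), and the vertical axis the cumulative share of targets in percent for 184 head-library clones, 126 testis-library clones and 19026 other targets. The head-library curve lies close to that of the other targets, with medians of -0.07 and -0.02, and the testis-library curve is shifted to a median of -0.36.

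The small shift was not even over the slide. The median difference was -0.17 in row 1 alone and -0.02 in row 2 alone, where the other targets had -0.03 and -0.01. Without control 1, mutant 1 and mutant 2 it was 0.02. On single arrays, the median deviation of the clones from their own 8-array means was -0.11 in control 1, -0.18 in mutant 1 and -0.21 in mutant 2. It was 0.05, 0.07 and 0.13 in control 2 to 4 and 0.12 and 0.13 in mutant 3 and 4. The 3 lowest arrays were thus the 3 with high small structured RNAs, 1 of them a control. For the other targets the same medians stayed between -0.04 and 0.03.

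On the level of single clones, 73 of 184 (39.7%) had all of control 1, mutant 1 and mutant 2 below the other 5 arrays, against 19.7% of the other targets and 27.0% of testis-library clones. The count was 41 of 106 for GH, 21 of 63 for RH and 11 of 15 for HL clones. The opposite order, with those 3 arrays above the other 5, was seen in 23 clones (12.5%), against 15.4% of the other targets, and in 8 GH, 14 RH and 1 HL clones. Clones with a gene symbol differed from the set: 10 of 44 (22.7%) had the 3 arrays below and 12 (27.3%) above. In the HL library the median deviation was -0.32, -0.50 and -0.44 on the 3 arrays and between 0.10 and 0.37 elsewhere. The part of small structured RNA level, slide row or signal in this order was not tested.

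**Figure D3:**
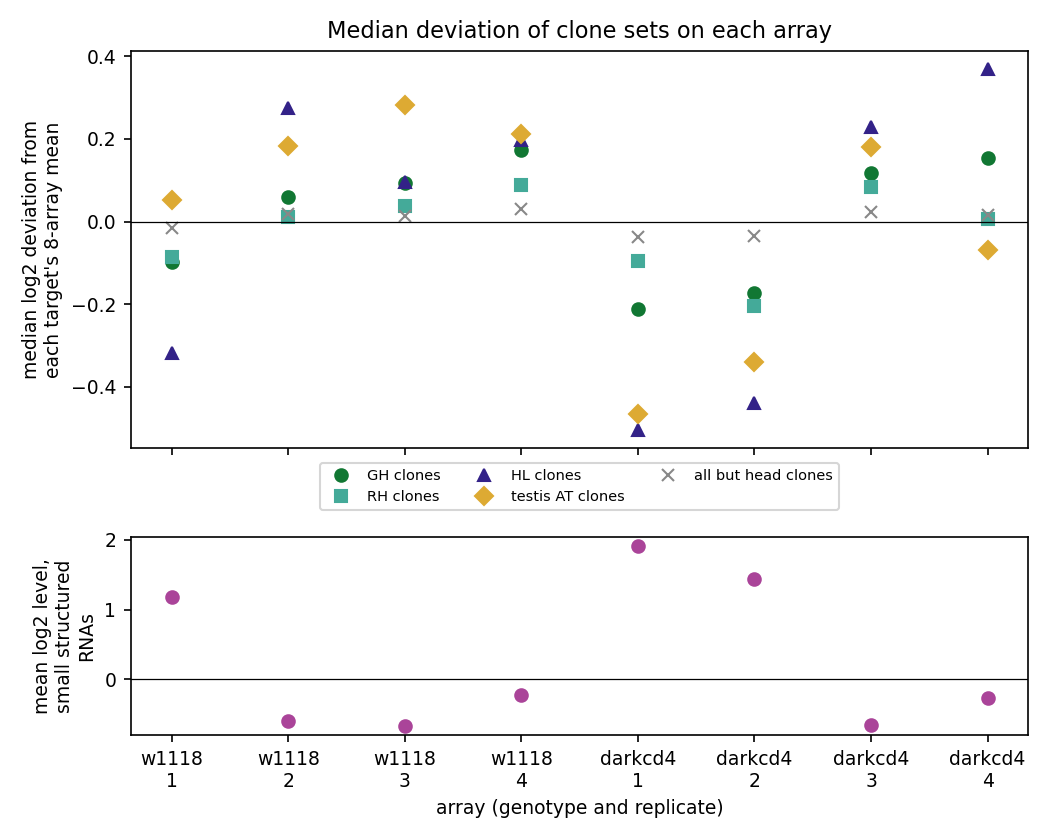
The upper panel gives, for each array, the median log2 deviation from each target's own 8-array mean for GH, RH, HL and testis AT clones and for all targets but the head clones; the lower panel gives the mean log2 level of the small structured RNAs. On control 1, mutant 1 and mutant 2 the head-library medians lie below 0, furthest for HL at -0.50 on mutant 1, and the small structured RNAs are at 1.19 to 1.92.

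Ion channels and transmitter receptors make neurons excitable, and 5 clones represented them: Shaker (Sh, clone GH03046), a voltage-gated potassium channel; nAChRalpha6 (GH01410), a nicotinic acetylcholine receptor subunit; GluClalpha (HL07853), a glutamate-gated chloride channel; pHCl-1 (GH21757), a pH-sensitive chloride channel; and Trpm (GH04950), a cation channel of the TRP family. Of these 5 genes 0 were called (limma, adjusted p from 0.243 to 0.930), where 2.19% of all targets were. An unadjusted limma p under 0.05 was seen in 0 of them, against 21.1% of all targets. At these shares so small a group can hold 0 calls, so the count is no result about channels as a class. GluClalpha was at -0.33, 0.38, 0.44 and 0.44 in control 1 to 4 and -0.89, -0.74, 0.16 and -0.01 in mutant 1 to 4. Its difference was -0.61, with a 95% interval from -1.22 to 0.01, and its second probe gave -0.62. Control 1 and mutant 1 and 2 were its lowest arrays.

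The acetylcholine receptor subunit nAChRalpha6 stood at -2.44, -2.14, -2.33 and -2.02 in control 1 to 4 and -3.17, -2.99, -2.26 and -2.25 in mutant 1 to 4. Its difference was -0.43 (95% interval -0.95 to 0.09), and mutant 3 and 4 lay inside the control range. Trpm was at -1.77, -1.57, -1.58 and -1.31 in control and -2.19, -1.77, -0.98 and -0.96 in mutant arrays. Control 1 and mutant 1 and 2 lay below the other arrays in Trpm, GluClalpha and nAChRalpha6, but not in Sh and pHCl-1. This order was seen in 19.7% of the other targets. The difference of Trpm was 0.08 (95% interval -0.54 to 0.70). Sh was at -4.14, -3.97, -4.30 and -3.67 in control and -4.56, -4.65, -2.92 and -3.66 in mutant arrays, and differed by 0.07 (95% interval -0.77 to 0.90). For Sh the mutant arrays spanned the control range on both sides. The difference of pHCl-1 was -0.25 (95% interval -0.77 to 0.26), and it was well above background on 3 of the 4 mutant arrays.

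Of 5 clones of neuronal and cytoskeletal proteins 0 were called, against 2.19% of all targets. Jupiter (RH53211), a microtubule-associated protein, had the smallest p of the 5: it was at -3.33, -3.70, -2.90 and -3.25 in control 1 to 4 and at -2.62, -2.38, -2.97 and -2.63 in mutant 1 to 4. Its difference was 0.65 ± 0.19 (limma, adjusted p = 0.125; SE, n = 4 per genotype), and mutant 3 overlapped the controls; without mutant 3 it was called at 0.75 (limma, adjusted p = 0.0434). In row 1 alone the difference of Jupiter was 1.01 and in row 2 alone 0.28 (limma, adjusted p = 0.0622 and 0.571). Unc-76 (GH10260), an adaptor of the axonal transport motor kinesin, differed by 0.11 ± 0.12, and its second probe by 0.08. fend (RH56795), a gene of motor axon guidance, gave 0.84 ± 0.32 (limma, adjusted p = 0.188), with -0.40, -1.34, 0.09 and 0.16 in control and 0.92, 0.14, 0.36 and 0.46 in mutant arrays. Its second probe gave -0.31, so the 2 probes of fend had opposite signs. Cdep (RH50880), a FERM-domain protein, differed by -0.83 ± 0.46 and was well above background on 2 of 4 mutant arrays. Mob2 (GH13236), a partner of the Tricornered kinase, differed by -0.01 ± 0.23, with its second probe at 0.09.

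Mitochondrial proteins, which serve respiration and the organelle's own protein synthesis, had 7 clones, with 7 tested. Of these 0 were called (limma, adjusted p from 0.338 to 0.959), against 2.19% of all targets. An unadjusted limma p under 0.05 was seen in 0, against 21.1% of all targets. The group is too small for its count of calls to be a result about mitochondria. ND-B17.2 (GH12382) and ND-B14.7 (RH51452) are subunits of respiratory complex I, mRpL14 (RH18819) and mRpL52 (RH01479) are proteins of the mitochondrial ribosome, and Fdx1 (RH67819) is a ferredoxin. Each of these 5 had control 1, mutant 1 and mutant 2 above the other 5 arrays, an order seen in 15.4% of the other targets. Clones outside the group had it too, Hsc70-1, Cpr60D and SP2353 among them, and in all 12 of the 44 tested clones with a symbol did. GluClalpha, nAChRalpha6 and Trpm had the opposite order, seen in 19.7% of the other targets. Tim17a2, aralar1, Sh and pHCl-1 had neither order, so it does not mark off the 2 groups. ND-B14.7 stood at 5.74, 4.99, 5.25 and 5.20 in control 1 to 4 and 5.97, 5.78, 4.89 and 5.00 in mutant 1 to 4, with a difference of 0.12 ± 0.28. ND-B17.2 stood at 4.31, 3.77, 3.85 and 3.82 in control and 4.59, 4.35, 3.78 and 3.64 in mutant arrays, with a difference of 0.15 ± 0.23. The genotypes overlapped for both subunits, with control 1 between mutant 2 and the other controls, and mutant 3 and 4 among or below the other controls. The differences of mRpL14, mRpL52 and Fdx1 were 0.18, 0.08 and 0.02. Tim17a2 (RH03914), of the inner membrane import channel, differed by -0.28 ± 0.16, and aralar1 (GH07418), the aspartate and glutamate carrier, by -0.13 ± 0.15.

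**Figure D4:**
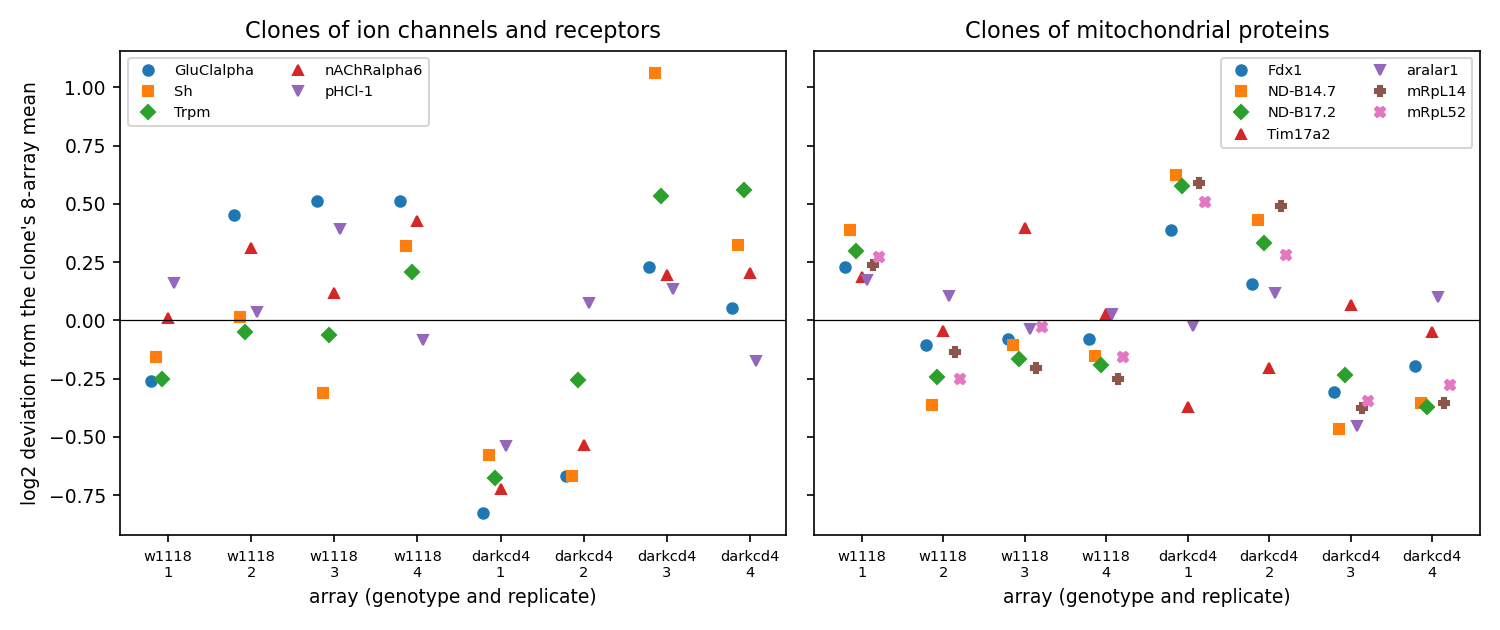
The vertical axis is the log2 deviation of each clone from its own 8-array mean, and the horizontal axis lists the arrays by genotype and replicate, with 5 channel and receptor clones on the left and 7 mitochondrial clones on the right. On w1118 1 and darkcd4 1 and 2, ND-B17.2, ND-B14.7, mRpL14, mRpL52 and Fdx1 lie above 0, while GluClalpha and Trpm lie below it. Tim17a2, aralar1, Sh and pHCl-1 do not have these arrays all above or all below the others.

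Cuticle and chitin proteins, which form the exoskeleton, had 3 clones. Acp65Aa (RH61147), an adult cuticle protein, was at -6.19, -6.32, -6.26 and -6.59 in control 1 to 4 and -4.98, -5.63, -6.08 and -6.09 in mutant 1 to 4. The genotypes did not overlap, but the difference of 0.65 ± 0.28 did not pass (limma, adjusted p = 0.235), and the clone was well above background on 2 of 4 control arrays. The cuticle protein Cpr60D (RH24125) and the chitin-binding obst-B (GH02976) differed by 0.00 ± 0.26 and 0.02 ± 0.15.

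Predicted secreted enzymes and a transporter, grouped after the symbols were known, gave 4 tested clones. Of these 1 was called, where 2.19% of all targets were, and in so small a group the count is no result about such genes. The called clone was that of CG11841, which rose. The related predicted serine protease CG9672 (GH16384) differed by 0.04 ± 0.33, and CG32260 (GH24648), a further one, was well above background on 1 control and 0 mutant arrays and did not enter. The predicted carboxylesterase CG4757 (GH05702) differed by -0.29 ± 0.28. CG7720 (RH05973), a predicted sodium-coupled solute transporter, was at 0.94, 1.05, 0.83 and 0.64 in control 1 to 4 and -0.51, -0.01, 0.78 and 0.55 in mutant 1 to 4. Its difference of -0.67 ± 0.26 did not pass (limma, adjusted p = 0.192): mutant 3 lay among the controls, and mutant 1 and 2 were low. Without mutant 3 CG7720 was called, at -0.86 (limma, adjusted p = 0.0473), as it was in row 1 alone, at -1.26 (limma, adjusted p = 0.0409). In row 2 alone its difference was -0.08 (limma, adjusted p = 0.837), and without control 1, mutant 1 and mutant 2 it was -0.18 (limma, adjusted p = 0.548).

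Signalling, stress and housekeeping genes had 8 clones and 0 calls, where 2.19% of all targets were called, with 4 differences above and 4 below 0. chrb (GH09771), an inhibitor of TOR signalling that is induced by low oxygen, stood at 1.14, 1.07, 1.14 and 1.09 in control 1 to 4 and 1.68, 1.31, 1.48 and 1.36 in mutant 1 to 4. Every mutant array was above every control, and the difference was 0.34 ± 0.11 (SE, n = 4 per genotype; limma, adjusted p = 0.137); the other probes of the clone gave 0.18 and 0.16. Ypel (GH10478), of the Yippee family, was also separate by genotype, at 0.34, 0.36, 0.35 and 0.44 in control and 0.57, 0.53, 0.50 and 0.59 in mutant arrays, a difference of 0.17 ± 0.09 (limma, adjusted p = 0.279). These 2 of the 8 clones had all mutant arrays above all controls, as did 5.98% of all targets, and neither was called. In so small a group this count is no result about the group.

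The sialomucin gene vsg (GH15083) differed by 0.48 ± 0.24 with overlapping groups. ptc (RH36596), the Hedgehog receptor, gave -0.10 ± 0.24, and its second probe -0.75. Hsc70-1 (RH49358), a constitutive chaperone, gave -0.01 ± 0.17, and Polr2F (RH21608), an RNA polymerase subunit, 0.10 ± 0.11. These clones overlapped between genotypes, as did CHKov1 (GH03753), a kinase-like gene, at -0.12 ± 0.33. atos (GH05710) gave -0.31 ± 0.26, and its other probes gave -0.50 and -0.48.

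Noncoding RNAs and pseudogenes were the last group with a shared annotation. The long noncoding RNA lncRNA:mimi (GH16531) was steady, at 4.71, 4.65, 4.65 and 4.70 in control 1 to 4 and 4.79, 4.66, 4.69 and 4.90 in mutant 1 to 4, and differed by 0.09 ± 0.12. The hairpin RNA hpRNA:CR33940 (RH57193), of a class that gives rise to small interfering RNAs, was at 2.03, 1.64, 1.70 and 1.59 in control and 2.64, 2.21, 1.75 and 1.68 in mutant arrays, and differed by 0.33 ± 0.22 (limma, adjusted p = 0.394). Its 3 highest arrays were control 1, mutant 1 and mutant 2. The pseudogenes CR18166 (GH02584) and CR31032 (GH15189) differed by 0.06 and -0.01, and CR9337 (GH05725) was above background on 0 arrays. The remaining named clones, of CG33293 (-0.31), CG42784 (-0.52), CG15202 (-0.30), hwt (-0.22), CG13631 (0.14), CG14715 (0.23), SP2353 (0.37) and CG33178 (0.38), were not called, and CG9759 did not enter.

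**Figure D5:**
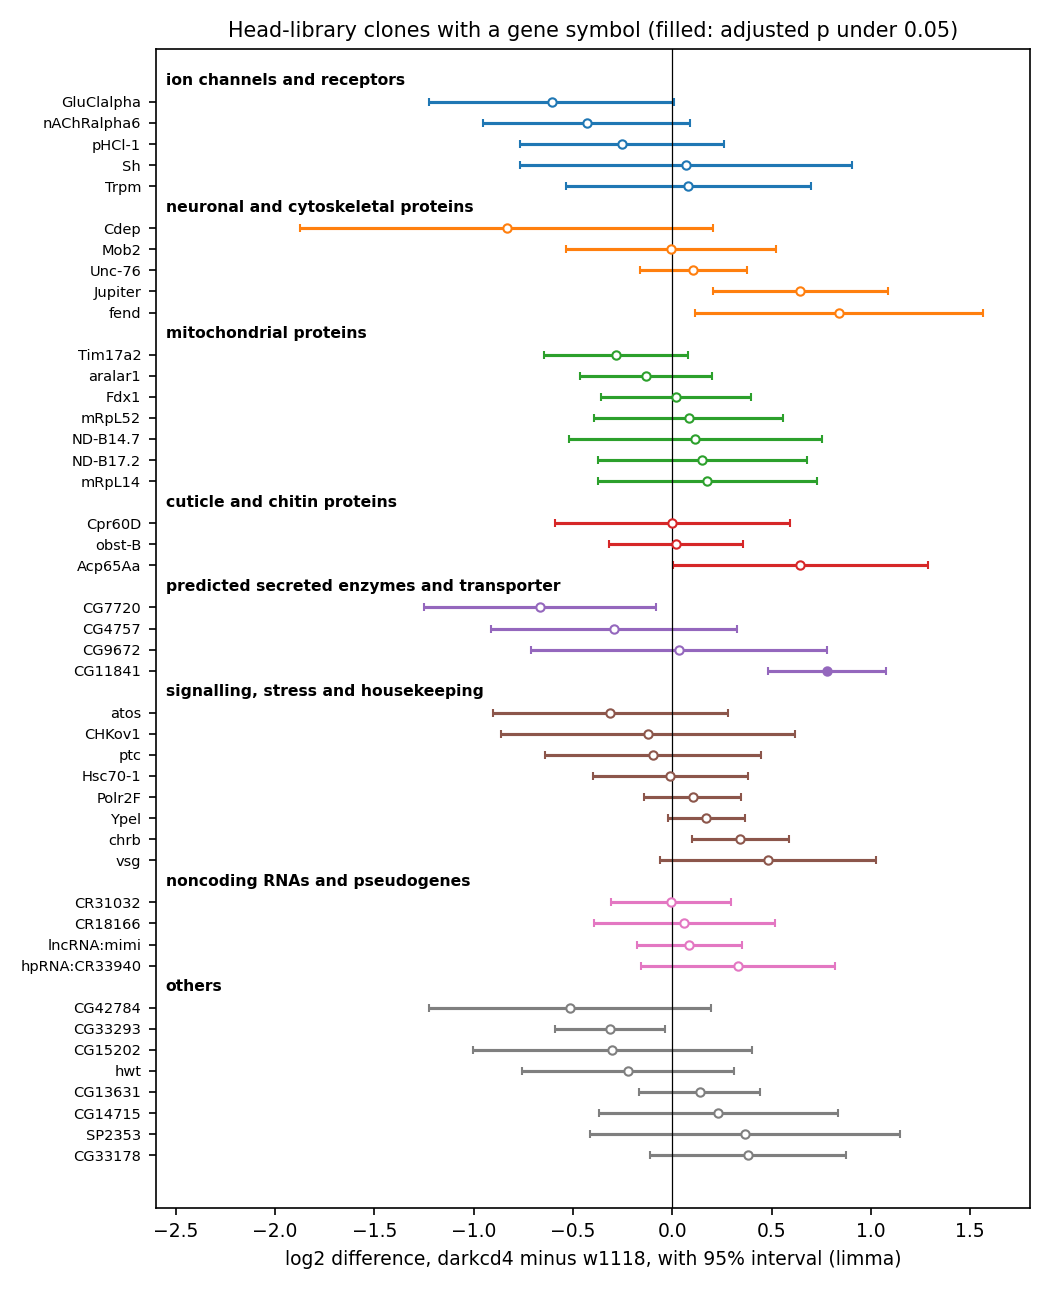
The horizontal axis is the log2 difference, darkcd4 minus w1118, of the 44 tested clones with a gene symbol; points are limma estimates, bars their 95% intervals, colours the functional groups. CG11841, at 0.78, is the filled point, and the differences of the other 43 genes run from -0.83 for Cdep to 0.84 for fend.

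Within w1118 some clones were steady and others varied many-fold. Over the 4 control arrays the lowest standard deviations were 0.03 for lncRNA:mimi and 0.04 for chrb and GH04557, where the median clone had 0.25. GH04557 was at 3.02, 3.08, 3.12 and 3.06 in control and 3.38, 3.51, 3.05 and 3.44 in mutant arrays, a difference of 0.28 ± 0.12 (limma, adjusted p = 0.245). Mutant 3 again lay with the controls, and without it GH04557 was called, at 0.37 (limma, adjusted p = 0.0474), while row 2 alone gave 0.16 (limma, adjusted p = 0.678). The highest standard deviations were 1.24 for GH16625, 1.02 for RH68747 and 0.84 for GH02545. GH16625 was at -3.29 in control 1 and between -5.86 and -5.54 in the other controls, and GH02545 was at -6.40 and -6.32 in control 1 and 2 but -7.72 and -7.90 in control 3 and 4, with 2 control arrays well above background. The differences of GH16625 and GH02545 were -0.42 and 0.79 (limma, adjusted p = 0.665 and 0.392).

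Fewer clones were detected on some mutant arrays. Between 183 and 188 of the 222 clones (82.4% to 84.7%) were well above background on each control array, and 161, 176, 183 and 182 on mutant 1 to 4. These mutant counts were 72.5%, 79.3%, 82.4% and 82% of the clones. Of the other targets, between 74.2% and 77.4% were so on each control array, and 70.3%, 73.8%, 75.4% and 72.9% on mutant 1 to 4. Mutant 1, with the lowest count, also had the lowest 75th percentile, and the part of its signal in the count was not tested. On all 4 mutant arrays 157 clones (70.7%) were detected, against 68.2% of the other targets. Of the 222 clones, 23 were detected on all control arrays but not on all mutant arrays, and 1 was in the opposite position. Among the 25545 other targets the numbers were 1010 and 145, and among the 139 testis-library clones 4 and 1. Where 3 of 4 arrays sufficed, 181 clones (81.5%) were detected in control and 171 (77%) in mutant, against 73.7% and 71.6% of the other targets. The numbers in 1 genotype alone were then 12 and 2 for the clones and 710 and 188 for the other targets. GH03995 was well above background on 4 control and 0 mutant arrays. It was the single clone of this kind, and it was named after its values were seen. It entered the comparison through its control arrays alone. Its difference of -0.78 did not pass (95% interval -1.62 to 0.06, limma, adjusted p = 0.262). The groups overlapped, with mutant 4 at -6.09 above control 1 at -6.21, and mutant 2 was lowest at -7.83. A second mutant mean took, per array, the larger of the lowest signal flagged above background and what the probe itself read. The control mean was 1.51-fold above it, but with an interval that included 0 this ratio sets no lower limit. Of the 38 clones that did not enter, 22 were above background on 0 of the 8 arrays, and 27 of the 38 were RH clones.

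Probes of the same clone gave similar but not identical differences. A single probe entered for 139 clones, and 45 clones had 2 or more. Over 54 pairs of the brightest probe with another probe of its clone, 43 had the same sign and the gap between them was 0.14 in the median. The widest gap was in SP2353 (GH12319), where the brightest probe gave 0.37 and the other -0.88. Probes of a clone share the arrays and the RNA, so their agreement adds no replicate.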

How the data were processed

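Total RNA of 8 whole-body samples was labelled with Cy3 from 50 ng, per the labels. Per the file headers and the submitters' processing notes, the authors extracted spot intensity values with Agilent Feature Extraction 10.7.3.1; the processed signal is background-subtracted and detrended, and not normalized between arrays. The deposited 0 or 1 flags give outlier spots, saturation (0 spots) and whether a spot exceeds background clearly. The deposited series table holds log2 values that followed, with r of at least 0.9999 and slopes from 0.9996 to 1.001 over 24648 probes, the levels used here after each probe's median had been taken off. Its control columns had medians of -0.0411, -0.0123, 0.00866 and -0.0123 in replicate order, its mutant columns 0.0528, 0.0281, -0.0148 and 0.0345. The software behind that table is not given in the sources used here.

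Of 62976 spots, 61657 are not controls; 80 probes named as spike RNAs were left out. Levels are log2 processed signals relative to the array's 75th percentile. Spots of a probe were averaged on the log2 scale without outlier spots. A target is an array identifier, represented by its brightest probe; probes had to be well above background on at least 4 of 8 arrays, and 1 probe with an array of outlier spots only was left out. The test was that of limma 3.58.1 under R 4.3.3, by lmFit and then eBayes with trended variances, and p-values were adjusted over all 19210 targets by Benjamini-Hochberg. In simulated data with the means and spreads of these 19210 targets, the comparison of mutant and control recovered 54.5% of 200 targets given a log2 change of 1, 89.5% at 2 and 0 at 0.5. There were 7 false calls at 1, 7 at 2 and 0 at 0.5. The simulated noise was independent between targets, without the array-wide differences seen here, so these rates may not hold for the real arrays. Names came from a table of the Release 6 assembly, which matched 334 of 25768 targets; the array's grid names dm3, so no coordinates are given, and no sequences were used here. The files hold no mean spot signal, so the planned normexp settings used the median signal.

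The clones, gene lists and tests were chosen with earlier results of these data known. The naming rule took called clones with separate groups, the 10 with the smallest p, list members, the 4 largest uncalled differences and the 3 most and least variable clones in w1118; clones with a symbol were added and grouped by role after the symbols were known. Members of the lists were found by gene symbol, which 334 of 25768 targets had, so list genes under other identifiers could not be counted. Of 16 lists, 11 had 0 tested targets with a symbol. Beside the synapse list (Sh), 2 of 3 named gut enzymes (LysB, LysE) and 1 of 1 named chemosensory gene (Os-C) were called lower. Of all targets 0.906% were called lower, and so few named members give no result about a list. The 1 named accessory gland gene (Dup99B) and the 1 named stress gene (Cyp4d20) were not called. Figures were drawn with matplotlib 3.10.9 in Python 3.11.15.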

Additional observations from a re-analysis of the deposited data

Results flagged for a closer look

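In 120 groups of 4 arrays, 6 values lay far from the other 3 arrays of their group. A rate of 1 in 20 would give this number in independent groups. These groups were read on the same arrays and are not independent, so the count cannot be set against chance. All 6 were on control 1, an array with high small structured RNAs. Higher there than in the other controls were ND-B17.2 (GH12382), at 4.31 against 3.77 to 3.85, GH16625, at -3.29 against -5.86 to -5.54, CG33178 (RH14671), at 2.002 against 1.45 to 1.49, Hsc70-1 (RH49358), at 2.26 against 1.71 to 1.78, and Fdx1 (RH67819), at -0.35 against -0.68 to -0.65. GluClalpha (HL07853) was lower there, at -0.33 against 0.38 to 0.44. In 5 of these 6 clones, all but GH16625, mutant 1 and mutant 2 also lay on the same side of the other 5 arrays as control 1.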

How the results depend on the processing

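The median difference of the clones was -0.07 and stayed between -0.13 and -0.02 when 1 array was left out, but it is too near 0 to have a settled sign: it was -0.0060 with probes above background on all 8 arrays (others -0.01), 0.01 with no filter on dim probes (others 0.05), 0.02 without control 1, mutant 1 and mutant 2, and 0.17 with normexp and the 75th percentile, where the other targets also moved, from -0.02 to 0.13. The clones' median thus lay above that of the others with the all-array filter, without the 3 arrays and with that normexp setting. The range of the clones' array medians was 0.34, and 0.15 with normexp and quantile normalization. The count of called clones was 3 or 4 under the other scalings, filters and probe rules. It was 11 with the slide row as a block, 8 with the replicate block, and 0 to 13 leaving out 1 array. With array weights it was 71, which is 38.6% of the tested clones, against 37.1% of all targets in that fit. The count of all targets called was 1742 with the row block, 904 and 201 in rows 1 and 2 alone, 1047 with the replicate block, 7128 with array weights (which gave mutant 3 a weight of 0.28 and control 3 one of 2.605; the default estimation did not converge, and limma's gene-by-gene method was taken after that), and 136 to 2528 leaving out 1 array. The share of calls that were higher was 58.6%, and ranged from 45.2% with array weights, 47.6% with the row block and 48.5% without mutant 3 to 63.7% without control 1, 67.0% without mutant 4 and 67.7% with normexp and the 75th percentile. RH25742 lost its call with normexp and quantile normalization (limma, adjusted p = 0.0545) and with no filter (limma, adjusted p = 0.0684), and RH04101 with normexp and the 75th percentile (limma, adjusted p = 0.0925). Over 23 alternatives the sign of the 4 called clones did not change, while 31 of 55 uncalled named clones changed sign at least once. The labels do not say that replicate numbers pair the samples; deviations from the group means correlated at 0.68, -0.18, 0.29 and 0.33 for numbers 1 to 4 (across targets, which are not independent), and controls 1, 3 and 4, but not 2, correlated best with the mutant of their own number. The causes of these changes were not tested. Clones near background, such as Acp65Aa, Cdep and GH03995, are limited by their signal.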
